A study of Homo sapiens with 2 samples.

Results

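The collagen gene family was followed here as the 44 genes of the deposited matrix whose symbols have the form COL, a number, A and a number, out of 33694 genes. By the class of protein they encode, 11 are fibrillar collagens, 6 are type IV chains of basement membranes, 5 are type VI chains of beaded filaments, 10 are fibril-associated collagens with interrupted helices (FACIT), 4 are transmembrane collagens, 3 are short-chain network collagens, 2 are multiplexins, 1 is the anchoring fibril collagen and 2 belong to other types. The cells were HMLER cells, a human mammary epithelial line that was immortalised and transformed with oncogenic RAS. From its epithelial derivative C1 the study made C1-sgControl, edited with a control guide, C1-sgEED, which lost EED, and C1-sgKMT2D, which lost KMT2D, to follow cells that gain plasticity between epithelial and mesenchymal states. EED is a subunit of the Polycomb complex that places a repressive methyl mark on histone H3, and KMT2D methylates histone H3 at enhancers. All 3 lines grew in 1 medium with insulin, EGF and hydrocortisone, and no drug, time course or in vivo step is given. Cells of each line were stained with their own hashtag antibody (hashtag 1 for C1-sgControl, 3 for C1-sgEED, 4 for C1-sgKMT2D), mixed, and run as 1 single-cell 3′ RNA library. Hashtag 2 also marked cells, but the labels assign it to no line, so only its own ranges are compared and its values otherwise stand beside those of the lines as a description. Each line was therefore a single sample. In its title the library is called one of mixed clones, and how many clones stand behind a line is not stated there.

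Collagens are built from chains that wind around each other into a helix, and most of them work outside the cell. Fibrillar collagens such as types I, III and V form the tensile fibres made mainly by mesenchymal cells, type VI forms filaments around cells, and type IV forms the mesh of the basement membrane on which epithelium rests. In basal epithelial cells, type XVII spans the membrane at hemidesmosomes and type VII anchors the basement membrane to the fibres beneath it.

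Of 10336 barcodes, 9193 passed a minimum of 500 genes and a limit of 20% mitochondrial UMIs, where a UMI is 1 counted RNA molecule. Barcodes with 1 hashtag gave 1721 C1-sgControl, 2341 C1-sgEED, 2349 C1-sgKMT2D and 1935 hashtag 2 cells, with median depths of 3919 to 5672 UMIs. The filter removed 27.2% of the C1-sgControl barcodes and 4.30% to 6.70% of the others. Cells were divided by the V share, the fraction of VIM among the UMIs of KRT17 (a basal keratin) and VIM (vimentin, a mesenchymal filament protein): cells under 0.5 are called KRT17-rich and the others VIM-rich. These are ranges of a score and not cell types, and 59, 73, 138 and 173 cells of C1-sgControl, C1-sgEED, C1-sgKMT2D and hashtag 2 lay within 0.05 of the bound. VIM-rich cells made up 4.82% of C1-sgControl (82 cells), 52.5% of C1-sgEED, 50.2% of C1-sgKMT2D and 70.0% of hashtag 2. Without the 2 score genes, 4 epithelial markers (KRT5, KRT14, EPCAM, CDH1) together went from 2676 to 362 CPM between the KRT17-rich and VIM-rich cells of C1-sgEED, 3364 to 721 in C1-sgKMT2D, 6533 to 2499 in hashtag 2 and 4122 to 2080.4 in C1-sgControl. The 4 mesenchymal markers (ZEB1, FN1, CDH2, SPARC) went from 2128 to 3743, 1489 to 2467, 1232 to 1582 and 2637 to 2437 CPM in the same order, so in C1-sgControl their sum was not higher in VIM-rich cells, and EPCAM there stood at 55.1 and 99.6 CPM. FN1 made up most of each sum, with 2522 CPM in KRT17-rich C1-sgControl and 2364 in VIM-rich C1-sgKMT2D cells. The other markers did not follow it in every group. Between these 2 groups ZEB1 was at 0.638 and 19.1 CPM, CDH2 at 0.744 and 2.85, and SPARC at 113 and 81.2. The ranges did not sit at the same point in every line: KRT17-rich cells held 2729 CPM of VIM in C1-sgKMT2D and 1109 in C1-sgControl. The EED transcript stood at 13.6 CPM in C1-sgControl and 13.3 in C1-sgEED (20.1 in KRT17-rich and 5.82 in VIM-rich cells), and KMT2D at 4.63 and 5.01 CPM in C1-sgControl and C1-sgKMT2D, so transcript levels do not check the edits. Of 7 immune markers, PTPRC, CD3E and LYZ were at 0 in every group, CD14 and CD3D had at most 16 and 3 UMIs in a line, and CD68, a lysosomal protein that is not limited to immune cells, made up 9.15 to 25.2 CPM of a summed level that reached 27.1 CPM.

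Levels below are UMIs per 1000000 UMIs (CPM) summed over the cells of a group, with an exact 95% Poisson interval, and folds are ratios of CPM with an exact 95% interval. Both cover counting error only. With 1 sample per line there is no test between lines. A member was counted as higher or lower where it reached 5 CPM in either group and its ratio, after adding 1 CPM to each level, was at least 1.5-fold; the share of all genes of at least 5 CPM that met the same rule is given beside each count. The comparisons with C1-sgControl share its cells. Of the 44 members, 21 reached 5 CPM in some group, 18 stayed below it with at least 1 UMI, and 5 had none.

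**Figure D1:**
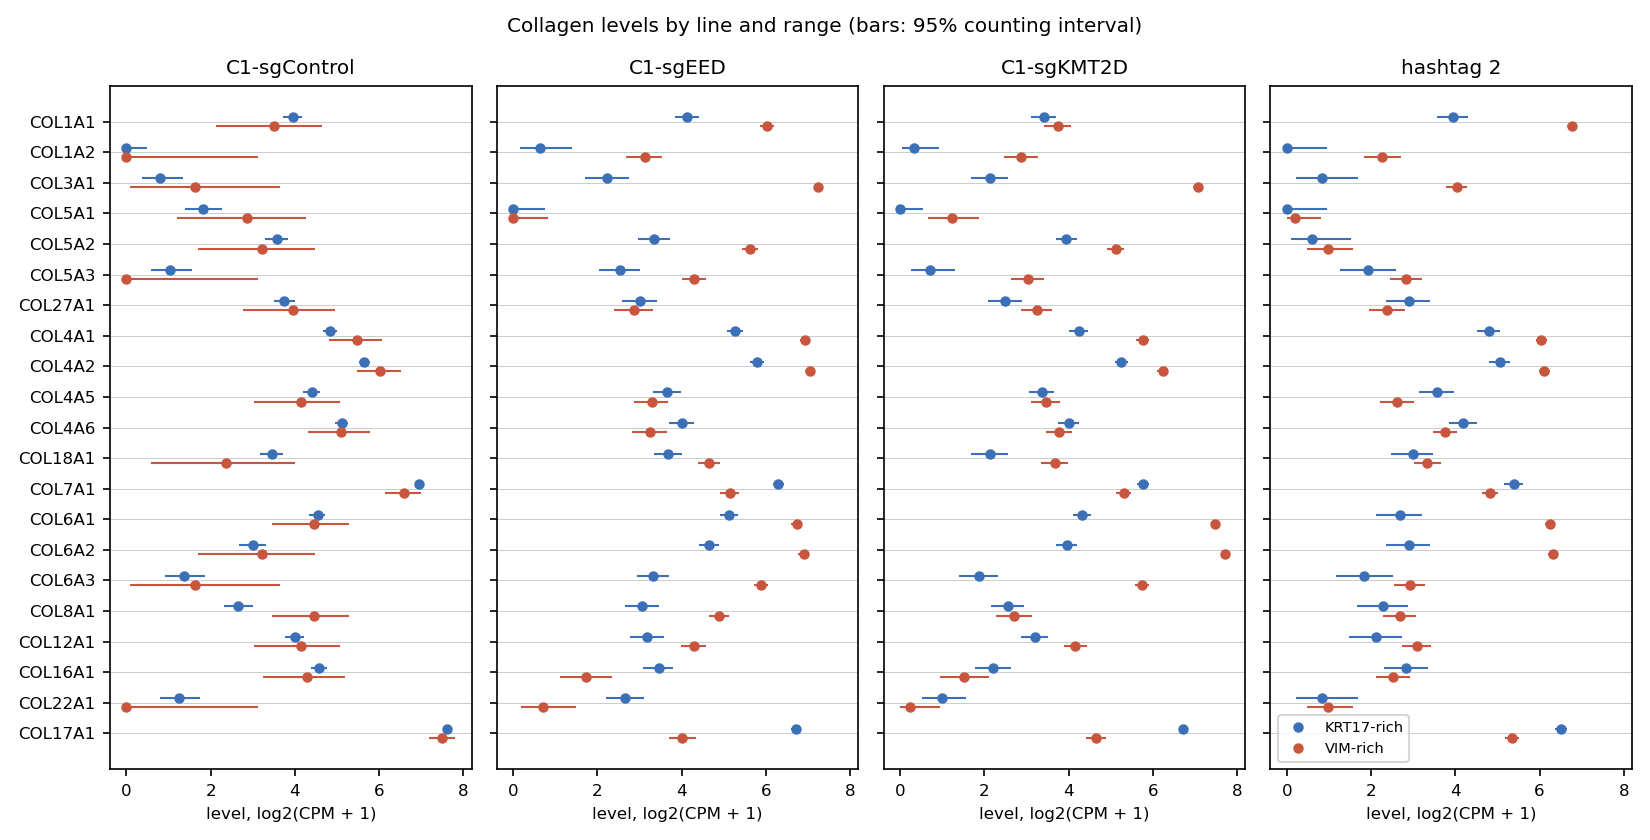
Levels of the 21 collagens that reached 5 CPM in some group, as log2(CPM + 1) on the horizontal axis, in KRT17-rich (blue) and VIM-rich (red) cells of each hashtag, with bars for the 95% counting interval. COL3A1 and the type VI chains lie far to the right in VIM-rich C1-sgEED and C1-sgKMT2D cells, and COL17A1 lies to the left there; the wide bars in C1-sgControl come from its 82 VIM-rich cells.

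VIM-rich cells of both knockout lines carried more collagen RNA than their KRT17-rich neighbours, mainly of fibrillar and type VI genes. All collagens together stood at 577 CPM in KRT17-rich C1-sgControl cells. The sum went from 459 in KRT17-rich to 981 CPM in VIM-rich C1-sgEED cells, and from 329.5 to 895 CPM in C1-sgKMT2D. Type VI chains made up 67.0 and 281 CPM of these sums in C1-sgEED, and 36.2 and 439 in C1-sgKMT2D. Fibrillar collagens accounted for 44.4 and 296 CPM in C1-sgEED, and for 33.3 and 203 in C1-sgKMT2D. The transmembrane class went the other way, from 106 to 19.3 CPM in C1-sgEED and from 105 to 25.3 in C1-sgKMT2D.

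Within C1-sgEED, 20 collagens reached 5 CPM and 13 of them were at least 1.5-fold higher in VIM-rich cells, where 12.5% of all genes were; 5 were lower, where 15.2% of all genes were. Their median log2 ratio was 1.43, against 0.01 over all genes measured. Within C1-sgKMT2D, 12 of 18 were higher and 1 was lower, against 7.95% and 7.28% of all genes, with a median log2 ratio of 1.08 against 0.02. Hashtag 2 gave 9 of 17 higher and 2 lower, against 6.97% and 7.13%, with medians of 0.90 and 0.01. In all 3 of these groups the share of collagens counted higher was above the share of all genes.

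Between whole lines, 11 of 18 collagens were higher and 6 lower in C1-sgEED than in C1-sgControl, against 12.1% and 7.89% of all genes. C1-sgKMT2D had 5 of 17 higher and 6 lower than C1-sgControl, against 7.49% and 14.4%. Relative to C1-sgEED, C1-sgKMT2D had 0 of 18 higher and 7 lower, against 3.10% and 14.2%. Whole-line values mix the KRT17-rich and VIM-rich cells, whose shares differ between the control and the knockouts, so the same comparisons were made within a range. Among KRT17-rich cells, C1-sgEED had 4 of 17 collagens higher and 7 lower than C1-sgControl, against 9.22% and 5.0% of all genes, and C1-sgKMT2D had 1 of 15 higher and 9 lower, against 6.02% and 13.9%. Among VIM-rich cells, C1-sgKMT2D had 3 of 18 higher and 6 lower than C1-sgEED, against 9.54% and 18.2%.

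**Figure D2:**
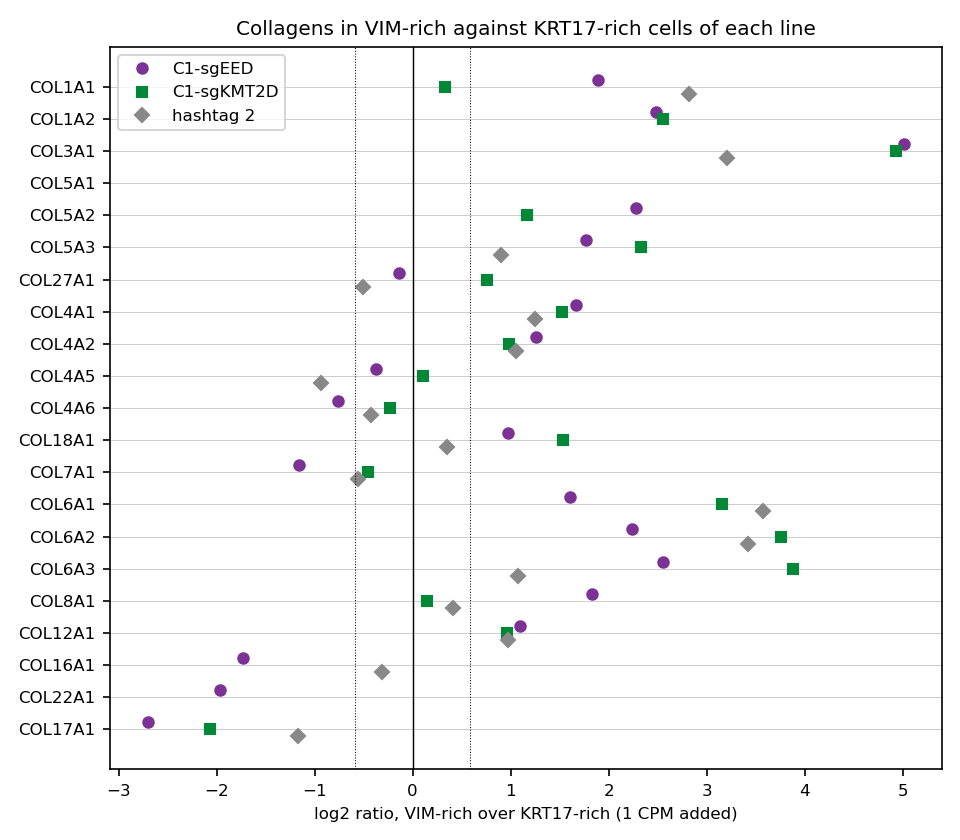
Log2 ratio of each collagen in VIM-rich over KRT17-rich cells (1 CPM added to each level) within C1-sgEED (circles), C1-sgKMT2D (squares) and hashtag 2 (diamonds), for members of at least 5 CPM in either range; dotted lines mark 1.5-fold. COL3A1 lies farthest to the right in both knockout lines, at 5.01 and 4.93, and COL17A1 farthest to the left, at -2.70 and -2.06.

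Among the fibrillar collagens, COL3A1, the chain of type III fibres in elastic tissue, had the largest ratio between the ranges of both knockout lines. Its level was 0.744 CPM (0.299 to 1.53) in KRT17-rich and 2.07 CPM (0.0525 to 11.6) in VIM-rich C1-sgControl cells. In C1-sgEED it was 3.68 CPM (2.25 to 5.69) in KRT17-rich and 150.3 CPM (139.6 to 162) in VIM-rich cells, a 40.8-fold ratio (26.2 to 67.3). In C1-sgKMT2D the same ranges held 3.40 and 133 CPM, a 39.1-fold ratio (26.7 to 59.7). The VIM-rich cells of both knockouts thus stood far above every other group, and their mutual ratio, C1-sgKMT2D over C1-sgEED, was 0.884 (0.798 to 0.979). In hashtag 2 it went from 0.770 CPM on 3 UMIs to 15.4 CPM.

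Type I collagen, the main fibre of connective tissue, is normally assembled from COL1A1 and COL1A2 chains, and the levels of these 2 genes did not follow each other. COL1A1 was at 14.5 CPM in KRT17-rich C1-sgControl cells and went from 16.6 to 64.0 CPM between the ranges of C1-sgEED, 3.87-fold (3.05 to 4.95). In C1-sgKMT2D it was 9.69 and 12.4 CPM, a ratio of 1.28 (0.919 to 1.79) that includes 1. In hashtag 2 it went from 14.4 to 107 CPM, 7.48-fold (5.70 to 9.99). VIM-rich C1-sgKMT2D cells therefore held 5.16-fold less COL1A1 (3.99 to 6.74) than VIM-rich C1-sgEED cells.

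The COL1A1 UMIs of C1-sgEED were concentrated in few cells. Of 308 UMIs in its VIM-rich range, 1 cell held 47, and 16 cells with at least 3 UMIs held 49.7%. In its KRT17-rich range 1 cell held 13 of 90. Without these 2 cells the levels were 54.4 CPM in VIM-rich and 14.2 CPM in KRT17-rich cells, in place of 64.0 and 16.6, and their log2 ratio was 1.87 in place of 1.89. In VIM-rich hashtag 2 cells there were 98 cells of at least 3 UMIs, and no cell held more than 9.

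COL1A2 had 0 UMIs in the C1-sgControl cells, which allows up to 0.302 CPM on a floor of 3 UMIs, beside 141 UMIs of COL1A1. It reached 7.69 CPM (5.42 to 10.6) in VIM-rich C1-sgEED, 6.37 CPM (4.51 to 8.75) in VIM-rich C1-sgKMT2D and 3.81 CPM (2.53 to 5.50) in VIM-rich hashtag 2 cells. The KRT17-rich cells of these groups held 3, 2 and 0 UMIs. COL1A2 was thus found almost wholly in VIM-rich cells, at levels that differed by no more than their intervals between the knockout lines, whereas COL1A1 also had UMIs in KRT17-rich cells of every hashtag.

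Type V collagen starts fibres and sets their width, and its chains are COL5A1, COL5A2 and COL5A3. COL5A2 was at 10.8 CPM in KRT17-rich C1-sgControl cells, went from 9.20 to 48.4 CPM in C1-sgEED (5.26-fold, 3.86 to 7.30) and from 14.5 to 33.7 CPM in C1-sgKMT2D (2.33-fold, 1.84 to 2.96). In hashtag 2 it was near 0, with 9 UMIs in 1935 cells and 0.796 CPM (0.364 to 1.51). COL5A2 lies beside COL3A1 on chromosome 2 with a gap of 19149 bases between the gene ends (GRCh38, GENCODE), and the neighbours differed in C1-sgControl, where COL5A2 had 106 UMIs and COL3A1 had 8, and in hashtag 2, where they had 9 and 116.

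COL5A3 was at 1.06 CPM in KRT17-rich C1-sgControl cells, 4.79 and 18.7 CPM in the ranges of C1-sgEED, 0.629 and 7.21 CPM in C1-sgKMT2D, and 2.82 and 6.12 CPM in hashtag 2. It was higher in VIM-rich cells of all 3, and 2.59-fold lower (1.78 to 3.82) in VIM-rich C1-sgKMT2D than in VIM-rich C1-sgEED cells. COL5A1 had the reverse pattern across lines at a low level, with 27 UMIs in 27 C1-sgControl cells, 8 in C1-sgKMT2D, 1 in hashtag 2 and 0 in C1-sgEED, where the same floor allows up to 0.292 CPM. In C1-sgEED, UMIs of COL5A2 and COL5A3 were thus counted in cells with none of COL5A1. COL27A1, a fibrillar chain of developing cartilage, was 1.78-fold lower (1.22 to 2.64) in KRT17-rich C1-sgEED cells and 2.67-fold lower (1.83 to 3.98) in KRT17-rich C1-sgKMT2D cells than in the 12.4 CPM of KRT17-rich C1-sgControl cells. Between the ranges it was 6.99 and 6.24 CPM in C1-sgEED and 4.66 and 8.56 CPM in C1-sgKMT2D, where it was counted higher in VIM-rich cells (1.84-fold, 1.18 to 2.89).

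Type VI collagen surrounds cells as beaded filaments that link them to the basement membrane, and it is assembled from COL6A1 and COL6A2 with another chain, most often COL6A3. COL6A1 was at 22.2 CPM (19.3 to 25.4) in KRT17-rich C1-sgControl cells, at 33.9 and 105 CPM in the KRT17-rich and VIM-rich cells of C1-sgEED, and at 19.0 and 177 CPM in those of C1-sgKMT2D. COL6A2 was at 7.02 CPM (5.43 to 8.93) in KRT17-rich C1-sgControl cells, 24.1 and 118 CPM in C1-sgEED, and 14.6 and 209.5 CPM in C1-sgKMT2D. COL6A3 was at 1.60 CPM (0.893 to 2.63), then 9.02 and 58.0 CPM, and 2.64 and 52.7 CPM in the same order. The 82 VIM-rich C1-sgControl cells held 20.7 CPM of COL6A1 (9.95 to 38.1), 8.30 of COL6A2 (2.26 to 21.2) and 2.07 of COL6A3 (0.0525 to 11.6), near the KRT17-rich cells of that line. All 3 chains were higher in VIM-rich cells of both knockouts, and the ratio was larger in C1-sgKMT2D. Its KRT17-rich levels were below those of C1-sgEED for all 3 chains, and its VIM-rich levels were above them for COL6A1 and COL6A2. For COL6A2 it was 4.89 (4.04 to 5.96) in C1-sgEED and 14.4 (11.9 to 17.5) in C1-sgKMT2D; that these ratios differ was not tested beyond their intervals.

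The knockouts differed in the balance of the type VI chains. VIM-rich C1-sgKMT2D cells held 1.68-fold more COL6A1 (1.51 to 1.87) and 1.78-fold more COL6A2 (1.61 to 1.97) than VIM-rich C1-sgEED cells. Their ratio for COL6A3 was 0.908 (0.770 to 1.07), an interval that includes 1. In hashtag 2, COL6A1 went from 5.39 to 75.1 CPM and COL6A2 from 6.41 to 78.4 CPM, while COL6A3 went from 2.57 to 6.53 CPM. COL6A1 and COL6A2 are neighbours on chromosome 21, and COL6A3 is on chromosome 2. COL6A5 and COL6A6, alternatives to COL6A3, had no UMI.

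KRT17-rich cells of C1-sgEED held more type VI RNA than those of C1-sgControl. The ratio was 5.65 (3.12 to 10.9) for COL6A3, 3.44 (2.54 to 4.69) for COL6A2 and 1.52 (1.24 to 1.87) for COL6A1, which was just past 1.5-fold and under it in 7 alternative settings. In KRT17-rich C1-sgKMT2D cells the ratio to C1-sgControl was 2.08 for COL6A2 (1.52 to 2.86), and with cells under a V share of 0.2 its log2 ratio was 0.18 in place of 0.96. The RefSeq window of the COL6A2 promoter is shown because COL6A2 was the only collagen counted higher in both whole-line comparisons with C1-sgControl, in both KRT17-rich comparisons with it, and between the ranges of all 3 other hashtags. Promoter windows run from 250 bases before to 50 after a start on the gene's strand, 5′ to 3′ (RefSeq, GRCh38.p14); capitals mark the GC box GGGCGG, the CCAAT box CCAAT, the E-box CAGGTG and the TATA box TATAAA on either strand, found in 45.0%, 34.6%, 20.6% and 11.5% of 35116 such windows, and no base was shared by 2 motifs. This window, chr21:46097862-46098161 on the plus strand, has 36 CpG dinucleotides, a number that 12.7% of all windows reach or pass, with 4 GC boxes and 1 TATA box.
COL6A2: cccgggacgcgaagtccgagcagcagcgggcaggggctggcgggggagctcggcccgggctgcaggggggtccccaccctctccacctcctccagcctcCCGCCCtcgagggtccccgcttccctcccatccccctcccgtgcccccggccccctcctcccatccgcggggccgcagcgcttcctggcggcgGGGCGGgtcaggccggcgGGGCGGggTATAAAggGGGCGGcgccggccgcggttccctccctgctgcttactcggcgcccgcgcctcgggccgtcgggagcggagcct

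The type IV genes divided into 2 pairs with different patterns: COL4A1 and COL4A2 were higher in VIM-rich cells, and COL4A5 and COL4A6 were highest in C1-sgControl. COL4A1 and COL4A2 encode the chains of the most widespread basement membrane network. COL4A1 was at 27.6 CPM in KRT17-rich C1-sgControl cells, went from 37.5 to 121 CPM in C1-sgEED (3.22-fold, 2.74 to 3.80) and from 17.9 to 53.3 CPM in C1-sgKMT2D (2.99-fold, 2.44 to 3.67). COL4A2 was at 49.1 CPM, went from 54.3 to 131 CPM in C1-sgEED (2.42-fold, 2.10 to 2.78) and from 37.2 to 74.7 CPM in C1-sgKMT2D (2.00-fold, 1.73 to 2.33). VIM-rich C1-sgControl cells held 43.6 CPM of COL4A1 (27.0 to 66.6) and 64.3 of COL4A2 (43.7 to 91.3). Both genes were also higher in VIM-rich hashtag 2 cells, 2.43-fold (1.96 to 3.03) and 2.11-fold (1.73 to 2.58). The knockout lines differed here too: VIM-rich C1-sgKMT2D cells held 2.27-fold less COL4A1 (1.97 to 2.61) and 1.76-fold less COL4A2 (1.55 to 1.99) than VIM-rich C1-sgEED cells, the opposite direction to COL6A1 and COL6A2. Among KRT17-rich cells, COL4A1 was 1.55-fold lower (1.26 to 1.91) in C1-sgKMT2D than in C1-sgControl, a ratio that fell under 1.5-fold in 3 alternative settings.

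COL4A5 and COL4A6 encode chains of another network, found in the basement membranes of skin and other epithelia and of smooth muscle. COL4A5 was at 20.1 CPM (17.3 to 23.2) in KRT17-rich C1-sgControl cells, 11.6 and 8.73 CPM in the ranges of C1-sgEED, 9.31 and 10.1 in those of C1-sgKMT2D, and 10.8 and 5.17 CPM in hashtag 2. COL4A6 was at 33.6 CPM (30.0 to 37.5), then 15.1 and 8.52, 15.1 and 12.7, and 17.2 and 12.5 CPM in the same order. Each was therefore highest in C1-sgControl, and lower in the KRT17-rich cells of both knockouts. For COL4A6 the KRT17-rich levels were 2.23-fold (1.74 to 2.87) lower in C1-sgEED and 2.23-fold (1.80 to 2.77) lower in C1-sgKMT2D. For COL4A5 they were 1.73-fold (1.30 to 2.34) and 2.16-fold (1.64 to 2.86) lower. Between the ranges of C1-sgKMT2D neither differed by 1.5-fold, and in C1-sgEED COL4A6 was 1.77-fold lower (1.20 to 2.64) in VIM-rich cells. The remaining pair, COL4A3 and COL4A4 of the kidney and lung network, had 0 UMIs and at most 1.66 CPM.

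Each type IV pair lies head to head, so that its 2 genes are read in opposite directions from a shared region, and their promoter windows are shown because the members of a pair shared a pattern and the pairs did not. The GENCODE starts of the COL4A1 and COL4A2 genes on chromosome 13 are 1421 bases apart, and the genes overlap there. The RefSeq windows lie around other starts, which are closer together, and share 226 bases. The GENCODE starts of COL4A5 and COL4A6 on chromosome X are 347 bases apart, and the RefSeq windows share 121. The COL4A1 window is chr13:110307108-110307407 on the minus strand and that of COL4A2 chr13:110307034-110307333 on the plus strand.
COL4A1: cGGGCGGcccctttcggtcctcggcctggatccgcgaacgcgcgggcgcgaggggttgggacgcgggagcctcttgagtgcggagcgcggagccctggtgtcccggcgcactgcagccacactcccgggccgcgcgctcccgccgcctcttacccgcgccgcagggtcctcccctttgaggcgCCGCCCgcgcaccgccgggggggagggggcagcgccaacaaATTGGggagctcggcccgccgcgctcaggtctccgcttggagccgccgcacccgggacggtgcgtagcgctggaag
COL4A2: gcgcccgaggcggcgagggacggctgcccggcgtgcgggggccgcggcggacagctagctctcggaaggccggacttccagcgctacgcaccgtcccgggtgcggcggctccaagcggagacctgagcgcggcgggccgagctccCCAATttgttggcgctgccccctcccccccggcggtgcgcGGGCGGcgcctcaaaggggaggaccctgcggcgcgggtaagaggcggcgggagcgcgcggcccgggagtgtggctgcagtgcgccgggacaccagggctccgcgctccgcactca

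The COL4A5 window is chrX:108439588-108439887 on the plus strand and the COL4A6 window that overlaps it is chrX:108439409-108439708 on the minus strand.
COL4A5: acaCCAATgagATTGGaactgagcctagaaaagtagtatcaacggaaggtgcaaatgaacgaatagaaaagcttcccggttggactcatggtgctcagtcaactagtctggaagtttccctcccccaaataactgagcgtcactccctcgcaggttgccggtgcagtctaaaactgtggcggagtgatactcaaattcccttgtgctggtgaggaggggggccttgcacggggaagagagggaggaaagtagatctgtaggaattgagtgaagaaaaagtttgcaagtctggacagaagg
COL4A6: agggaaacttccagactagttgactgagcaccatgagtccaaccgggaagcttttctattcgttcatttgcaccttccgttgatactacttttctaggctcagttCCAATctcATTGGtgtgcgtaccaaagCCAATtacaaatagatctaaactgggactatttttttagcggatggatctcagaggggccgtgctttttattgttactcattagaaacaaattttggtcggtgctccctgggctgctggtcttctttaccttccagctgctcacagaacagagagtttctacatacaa

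The COL4A1 and COL4A2 windows hold 45 CpG dinucleotides each, a number that 3.48% of all windows reach or pass, while those of COL4A5 and COL4A6 hold 8 and 7, reached by 60.7% and 63.2% of all windows. CCAAT boxes are present in all 4 windows, 1 in COL4A1 and in COL4A2, 2 in COL4A5 and 3 in COL4A6. As the windows of a pair overlap, these counts are not independent. The CCAAT sites of COL4A2 and COL4A5 are also sites of the COL4A1 and COL4A6 windows, read on the other strand. Of these 4 windows, GC boxes were found in that of COL4A1 (2) and that of COL4A2 (1), and the COL4A2 site lies in both. Another RefSeq window of COL4A6, chrX:108438373-108438672, does not overlap that of COL4A5. It holds 1 GC box, no CCAAT box and 5 CpG dinucleotides. The pairs thus differ in CpG content as well as in pattern, and 2 pairs allow no test of a relation.

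COL18A1, a multiplexin of epithelial and vascular basement membranes, was at 9.89 CPM in KRT17-rich C1-sgControl cells. It went from 11.8 to 24.1 CPM between the ranges of C1-sgEED (2.05-fold, 1.5 to 2.82) and from 3.40 to 11.7 CPM in C1-sgKMT2D (3.46-fold, 2.19 to 5.61). The difference between ranges was alike in direction, but the KRT17-rich levels were not alike: KRT17-rich C1-sgKMT2D cells held 2.91-fold less (1.88 to 4.65) than KRT17-rich C1-sgControl cells. The other multiplexin, COL15A1, had 5 and 6 UMIs in VIM-rich cells of C1-sgEED and C1-sgKMT2D, 2 in those of hashtag 2 and none in KRT17-rich cells or in C1-sgControl.

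Both collagens of the epithelial anchoring apparatus were lower in the knockout lines than in C1-sgControl, and COL17A1 was also lower in VIM-rich than in KRT17-rich cells of both knockouts. COL17A1, the transmembrane collagen of hemidesmosomes, was at 194 CPM (185 to 203) in KRT17-rich and 180.5 CPM (145 to 223) in VIM-rich C1-sgControl cells. In C1-sgEED it was 104 and 15.2 CPM, 6.86-fold lower (5.37 to 8.88) in VIM-rich cells. In C1-sgKMT2D it was 104 and 24.2 CPM, 4.31-fold lower (3.61 to 5.18), and in hashtag 2 90.3 and 39.6 CPM. The KRT17-rich cells of both knockouts stood 1.86-fold (1.70 to 2.05) and 1.86-fold (1.72 to 2.03) below those of C1-sgControl, so COL17A1 was lower even in cells with a keratin-dominated V share. The VIM-rich cells of C1-sgKMT2D held 1.59-fold more (1.19 to 2.14) than those of C1-sgEED, a log2 ratio of 0.64 that became -1.42 when cells were divided by other epithelial and mesenchymal genes, so its direction depended on how the range was set.

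The COL17A1 promoter window is shown as the counterpart of the windows above, since COL17A1 went the opposite way between the ranges. It lies at chr10:104085831-104086130 on the minus strand.
COL17A1: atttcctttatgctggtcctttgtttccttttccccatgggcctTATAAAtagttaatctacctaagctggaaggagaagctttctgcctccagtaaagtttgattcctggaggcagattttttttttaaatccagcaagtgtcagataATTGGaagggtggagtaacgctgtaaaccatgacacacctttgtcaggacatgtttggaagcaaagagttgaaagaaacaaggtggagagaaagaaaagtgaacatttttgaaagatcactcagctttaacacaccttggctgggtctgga

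It has 1 CpG dinucleotide, a number that 96.0% of all windows reach or pass, 1 CCAAT box and 1 TATA box, and neither a GC box nor the E-box letters. That the letters of a motif are present or absent is a description of this window only. CpG content did not go with direction in every window. The window of COL6A3, which was higher in VIM-rich cells of both knockouts, has 4 CpG dinucleotides. Those of COL16A1 and COL7A1, which were lower in VIM-rich C1-sgEED cells, have 22 and 17. A relation was not tested.

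COL7A1, the chain of anchoring fibrils, was at 122 CPM (115 to 129) in KRT17-rich C1-sgControl cells, 77.7 and 34.3 CPM in the ranges of C1-sgEED, 53.6 and 38.8 in those of C1-sgKMT2D, and 40.8 and 27.5 CPM in hashtag 2. The difference between ranges was 2.26-fold (1.89 to 2.73) in C1-sgEED and 1.38-fold (1.18 to 1.63) in C1-sgKMT2D, where it did not reach 1.5-fold. Relative to KRT17-rich C1-sgControl cells, COL7A1 was 1.57-fold (1.40 to 1.76) lower in KRT17-rich C1-sgEED and 2.27-fold (2.03 to 2.54) lower in KRT17-rich C1-sgKMT2D cells. In C1-sgKMT2D most of the difference of COL7A1 from the control was thus also seen in the KRT17-rich cells.

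The FACIT collagens, which sit on the surface of fibres or in basement membrane zones, had 3 members of at least 5 CPM with 3 different patterns. COL16A1, found in the basement membrane zone of skin, was at 23.0 CPM (20 to 26.2) in KRT17-rich C1-sgControl cells, 9.94 and 2.29 CPM in C1-sgEED, and 3.65 and 1.85 CPM in C1-sgKMT2D. Its KRT17-rich level was 6.29-fold (4.26 to 9.62) lower in C1-sgKMT2D and 2.31-fold (1.71 to 3.17) lower in C1-sgEED than in C1-sgControl. COL12A1, a partner of type I fibres, was 15 CPM in KRT17-rich C1-sgControl cells and higher in VIM-rich than in KRT17-rich cells, 8.10 and 18.5 CPM in the ranges of C1-sgEED, 8.18 and 16.9 in those of C1-sgKMT2D, so that the VIM-rich cells of the knockouts were near the control and the KRT17-rich cells below it. COL22A1, a collagen of tissue junctions, reached 5 CPM in 1 group, KRT17-rich C1-sgEED cells, at 5.34 CPM (3.57 to 7.67) against 1.38 CPM (0.736 to 2.36) in KRT17-rich C1-sgControl cells. VIM-rich C1-sgEED cells held 3 COL22A1 UMIs, 8.56-fold less (2.65 to 43.9).

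COL8A1, a short-chain collagen of vessel walls and of the membrane behind the cornea, separated the VIM-rich cells of the knockouts. It was at 5.32 CPM in KRT17-rich and 20.7 CPM (9.95 to 38.1) in VIM-rich C1-sgControl cells, 7.36 and 28.7 CPM in the ranges of C1-sgEED, 4.91 and 5.54 in those of C1-sgKMT2D, and 3.85 and 5.44 CPM in hashtag 2. VIM-rich C1-sgKMT2D cells held 5.18-fold less (3.52 to 7.83) than VIM-rich C1-sgEED cells. COL8A1 with COL1A1, COL5A3, COL18A1, COL4A1 and COL4A2 made up the 6 collagens counted lower in that comparison, and COL6A1, COL6A2 and COL17A1 the 3 counted higher.

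The remaining 23 members stayed below 5 CPM in every line and range. COL13A1 came nearest, with 3.33 CPM (1.90 to 5.40) in VIM-rich C1-sgEED cells, followed by COL9A3 with 3.12 CPM (1.75 to 5.14) there. Just above the threshold were COL22A1 at 5.34 CPM in KRT17-rich C1-sgEED cells and COL5A1 at 6.22 CPM, on 3 UMIs, in VIM-rich C1-sgControl cells. The chains of cartilage fibres were rare, COL2A1 with at most 2.21 CPM and COL11A1 with no UMI. COL4A3, COL6A5, COL6A6 and COL20A1 also had no UMI, and 15 members had 1 to 20 UMIs.

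The V share was then cut into bins of 0.2 to see where along it the levels changed. COL3A1 in C1-sgEED was 2.39, 3.54, 28.4, 144 and 163 CPM from the lowest bin to the highest, and in C1-sgKMT2D 0.962, 2.95, 18.9, 58.1 and 191 CPM. The level in the bin from 0.6 to 0.8 was near that of the top bin in C1-sgEED (116 to 176 against 150 to 176) and below it in C1-sgKMT2D (46.0 to 72.4 against 177 to 206). COL6A2 in C1-sgKMT2D went through 8.97, 15, 43.1, 133 and 282 CPM, so its level in the top bin of that line was higher than the 128 CPM of C1-sgEED.

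COL17A1 ran the other way, with a late drop. It was 103, 115, 74.9, 43.9 and 3.46 CPM across the bins of C1-sgEED and 103, 108, 88.6, 28.7 and 5.58 CPM in C1-sgKMT2D. In C1-sgControl the 4 bins of at least 20 cells held 199, 189.7, 165 and 196 CPM. In the bin from 0.6 to 0.8, on 30 C1-sgControl cells, the interval was 134 to 277 CPM against 29.4 to 63.0 in C1-sgEED and 20.4 to 39.2 in C1-sgKMT2D, so control cells of the same V share held more COL17A1.

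**Figure D3:**
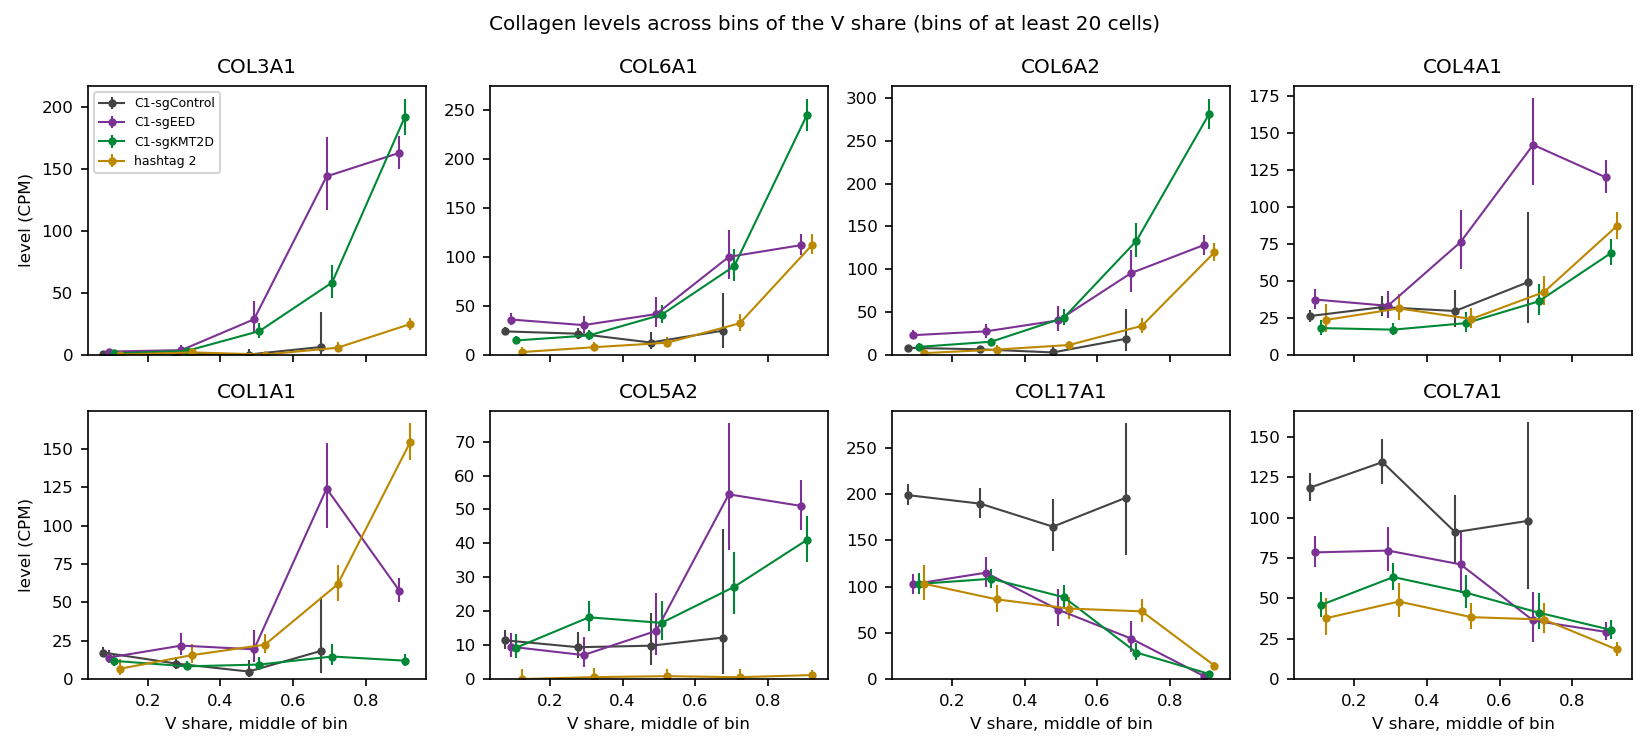
Levels (CPM, linear axis) of 8 collagens in bins of the V share for each hashtag, for bins of at least 20 cells, with bars for the 95% counting interval. COL3A1, COL6A1 and COL6A2 climb towards the top bin in the knockout lines, COL17A1 and COL7A1 descend, COL1A1 climbs in hashtag 2, and COL5A2 stays near 0 in hashtag 2.

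Cells with at least 1 UMI of a collagen were counted after each cell of at least 2000 UMIs was thinned to 2000, since depth differed between the ranges. This left 1553 of 1619 KRT17-rich C1-sgControl cells, 1057 of 1103 KRT17-rich and 1110 of 1218 VIM-rich C1-sgEED cells, and 1115 of 1155 and 1110 of 1166 C1-sgKMT2D cells. COL3A1 was detected in 0.258% of KRT17-rich C1-sgControl cells (0.0702 to 0.658; unthinned 0.432%), which were taken as the background that free RNA of the shared run can give. It was detected in 23.5% of VIM-rich C1-sgEED (21.0 to 26.1; unthinned 34.6%) and 20.5% of VIM-rich C1-sgKMT2D cells (18.1 to 22.9; unthinned 31.0%). The KRT17-rich cells of these lines gave 0.851% (0.390 to 1.61) and 0.448% (0.146 to 1.04), whose intervals overlap the background. Their unthinned levels, given above, were higher than in KRT17-rich C1-sgControl cells, on 20 and 27 UMIs against 7. The overlap therefore does not place them at the background. Median depths before thinning, over the cells kept, were 5803 UMIs in KRT17-rich C1-sgControl, 3660 in VIM-rich C1-sgEED and 4771.5 in VIM-rich C1-sgKMT2D cells.

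COL6A2 was detected in 1.61% of KRT17-rich C1-sgControl (1.04 to 2.37; unthinned 4.01%), 21.4% of VIM-rich C1-sgEED (19.1 to 24.0; unthinned 32.3%) and 31.4% of VIM-rich C1-sgKMT2D cells (28.7 to 34.3; unthinned 47.4%). COL17A1 was detected in 32.5% of KRT17-rich C1-sgControl cells (30.1 to 34.8; unthinned 60.3%), and in 2.52% (1.68 to 3.63; unthinned 4.93%) and 2.61% (1.76 to 3.73; unthinned 8.40%) of the VIM-rich cells of C1-sgEED and C1-sgKMT2D. No cells here are known to lack COL17A1, so the share that free RNA gives was not measured for it. Levels and shares of cells moved together between the ranges of the knockouts for these 3 genes. Between the VIM-rich cells of the knockouts, COL17A1 differed in level (log2 ratio 0.64, C1-sgKMT2D over C1-sgEED) but hardly in thinned share. At this depth most VIM-rich cells showed no UMI of a given collagen, which does not show that they lack it.

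**Figure D4:**
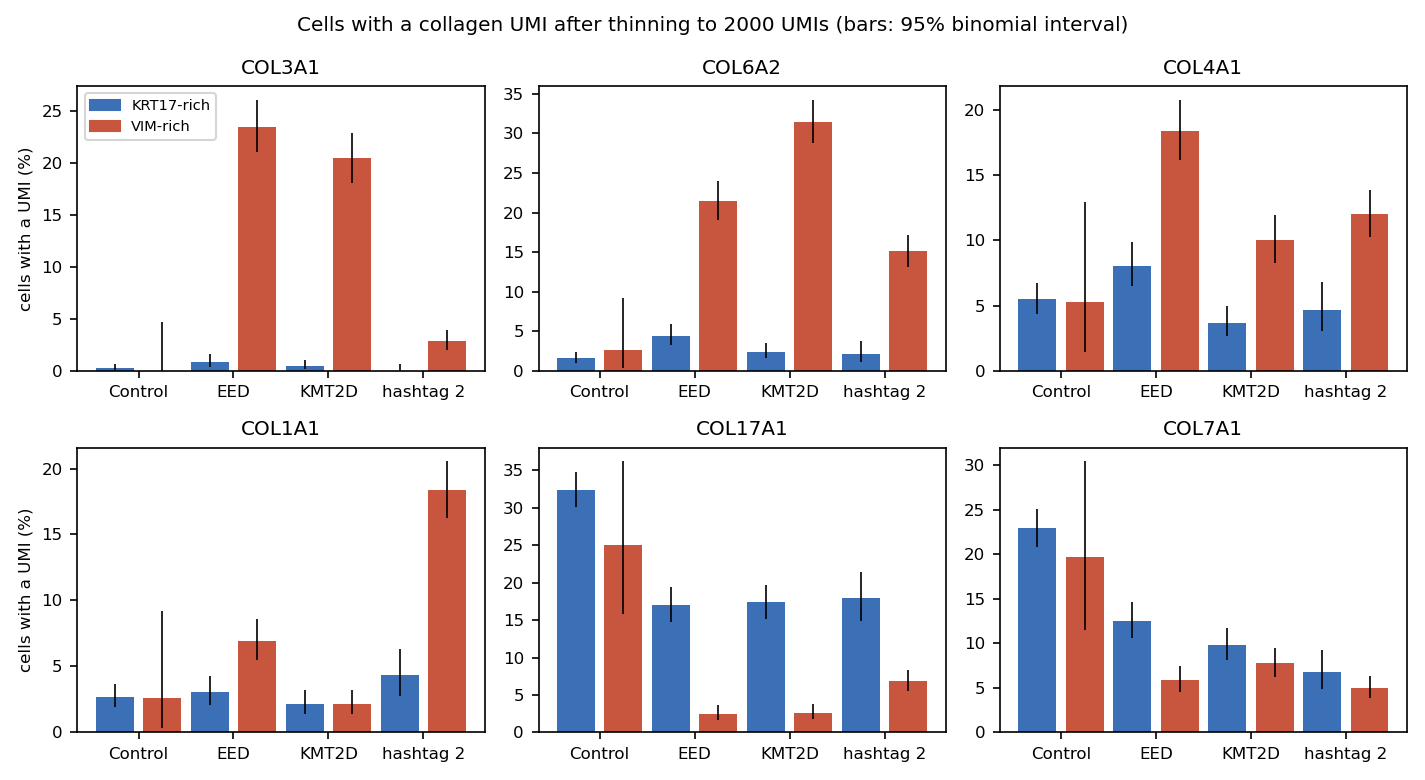
Percent of cells with at least 1 UMI of 6 collagens after thinning to 2000 UMIs per cell, in KRT17-rich (blue) and VIM-rich (red) cells of each hashtag, with 95% Clopper-Pearson intervals. COL3A1 and COL6A2 were detected mainly in VIM-rich cells of the knockouts and, for COL6A2, of hashtag 2, and COL17A1 in 32.5% of KRT17-rich control cells against 2.52% and 2.61% of VIM-rich C1-sgEED and C1-sgKMT2D cells.

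Genes that act on collagens were taken from 5 lists: 20 genes of chain assembly and modification, 12 of propeptide cleavage and crosslinking, 10 receptors, 14 of turnover and 10 fibril-associated proteins. The lists were chosen with earlier results of these data known, so their counts beside all genes are a description and no test. Within C1-sgEED, 7 of 19 measured assembly genes were higher in VIM-rich cells and 1 lower, 4 of 6 crosslinking genes were higher and 0 lower, 2 of 7 receptors were higher and 2 lower, 1 of 9 turnover genes was higher and 4 lower, and 6 of 7 fibril-associated genes were higher and 0 lower. Of all genes, 12.5% were higher and 15.2% lower. The median log2 ratios of the lists were 0.39, 0.71, 0.37, -0.34 and 3.32, against 0.01 over all genes. POSTN, a matrix protein that binds collagen, was at 36.4 CPM in VIM-rich C1-sgEED cells and had no UMI in KRT17-rich ones, at least 65.9-fold higher on a floor of 3 UMIs. LUM, a proteoglycan that spaces fibrils, was at 21.2 against 0.184 CPM on 1 UMI, a ratio of 115 (20.2 to 4595). ITGA11, a receptor subunit for fibrillar collagens, was at 17.5 against 0.368 CPM, a ratio of 47.4 (12.7 to 398). Lower in VIM-rich cells were MMP9, a gelatin-degrading protease (5.54-fold lower, 4.32 to 7.20), DDR1, a collagen receptor of epithelium (4.20-fold lower, 3.04 to 5.90), and ITGA2, a subunit of another receptor (2.37-fold lower, 1.89 to 2.98).

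Within C1-sgKMT2D, 5 of 18 assembly genes were higher and 1 lower, 3 of 4 crosslinking genes higher and 0 lower, 1 of 5 receptors higher and 2 lower, 2 of 6 turnover genes higher and 2 lower, and 5 of 6 fibril-associated genes higher and 0 lower, against 7.95% and 7.28% of all genes, with median log2 ratios of 0.30, 0.97, 0.04, 0.10 and 1.80 against 0.02 over all genes. DCN, decorin, was 16.9-fold higher (12.8 to 22.8) in VIM-rich cells, SPARC 3.28-fold (2.77 to 3.89) and PCOLCE2, an enhancer of propeptide cleavage, 3.29-fold (2.33 to 4.72). The SPARC level in these VIM-rich cells, 81.2 CPM, was below the 113 CPM of KRT17-rich C1-sgControl cells, where DCN was at 0.744 CPM. P3H2, which hydroxylates proline in basement membrane collagens, was 4.77-fold lower (3.25 to 7.20), MMP9 3.42-fold (2.16 to 5.64) and DDR1 2.93-fold (2.22 to 3.92). In hashtag 2 the counts were 6 higher and 1 lower of 19, 4 and 0 of 6, 1 and 2 of 5, 1 and 3 of 7, and 1 and 0 of 3, against 6.97% and 7.13% of all genes, with medians of 0.38, 0.90, -0.35, -0.23 and 0.27 against 0.01. LOX, which crosslinks fibres, was 3.07-fold higher (2.10 to 4.61) in VIM-rich hashtag 2 cells, P4HA3 of the assembly list 3.18-fold (1.86 to 5.79) and the receptor gene ITGA10 2.85-fold (2.29 to 3.58). MMP1 of the turnover list was 9.24-fold lower (4.62 to 20.5), MMP9 2.57-fold (1.64 to 4.06) and P3H2 2.14-fold (1.68 to 2.73).

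The VIM-rich cells of the knockouts were compared over the same lists. In VIM-rich C1-sgKMT2D relative to VIM-rich C1-sgEED cells, 0 of 19 assembly genes were higher and 7 lower, 1 of 6 crosslinking genes higher and 2 lower, 0 of 7 receptors higher and 4 lower, 0 of 7 turnover genes higher and 4 lower, and 1 of 7 fibril-associated genes higher and 5 lower, against 9.54% and 18.2% of all genes, with median log2 ratios of -0.36, -0.27, -0.99, -1.08 and -1.01 against -0.11 over all genes. LOXL1, a crosslinking enzyme of elastic and collagen fibres, was at 2.68 against 83.6 CPM, 31.1-fold lower (18.9 to 55.0). ITGA11 was at 0.168 CPM on 1 UMI against 17.5, 104-fold lower (18.2 to 4160.0), and PCOLCE, another enhancer of propeptide cleavage, was at 4.87 against 49.5 CPM, 10.2-fold lower (6.90 to 15.5). DCN went the other way, 113 against 32.8 CPM, 3.43-fold higher (2.88 to 4.11), as did PCOLCE2, 1.80-fold (1.29 to 2.55).

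The summed level of 6 fibroblast and pericyte markers was higher in VIM-rich than in KRT17-rich cells of every hashtag, C1-sgControl included. For PDGFRA, PDGFRB, THY1, LUM, DCN and RGS5 together it was 55.2 CPM in KRT17-rich C1-sgControl, 118 and 460.1 CPM in KRT17-rich and VIM-rich C1-sgEED, 28.8 and 189 CPM in C1-sgKMT2D, and 4.10 and 58.2 CPM in hashtag 2 cells. Fibrillar collagens in the same groups summed to 43.4 and 41.5, 44.4 and 296, 33.3 and 203, and 26.4 and 138 CPM, so the sums did not keep a fixed proportion. THY1 made up 54.1 CPM of the marker sum in KRT17-rich C1-sgControl and 386, 56.7 and 53.6 CPM in VIM-rich C1-sgEED, C1-sgKMT2D and hashtag 2 cells. In VIM-rich C1-sgControl cells it was the whole sum, on 42 UMIs. PDGFRB and LUM were at 0 in C1-sgControl, RGS5 had at most 6 UMIs in a line, PDGFRA was highest in VIM-rich C1-sgKMT2D (15.6 CPM) and PDGFRB in VIM-rich C1-sgEED cells (19.1 CPM). DCN and LUM are also on the fibril-associated list and SPARC, named above, on the mesenchymal one. The part of these markers in the collagen results was not tested.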

How the data were processed

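The data were 1 single-cell 3′ RNA library with hashtag antibody counts, and the deposited values are UMI counts per gene or hashtag and barcode, which, per the file headers, were the output of Cell Ranger 3.0.2 run by the authors, on GRCh38 per the submitters' processing notes. For the annotation, a release was not given in the sources used here. Gene rows were 33694 and barcodes 10336, with no column left unmapped.

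Barcodes of at least 500 genes and at most 20% mitochondrial UMIs were kept (9193 of 10336). Hashtags were called by a mixture of 2 Gaussians on log10(count + 1). Barcodes with several hashtags (820, 8.92%) or none (27) were left out as doublets or unassigned. Doublets of 1 hashtag cannot be seen this way and were expected to number 279 (3.35%); no doublet caller was run. Cells with fewer than 5 UMIs of KRT17 and VIM together were in neither range. Total depth was 9928063 UMIs in C1-sgControl, 10276177 in C1-sgEED, 13963548 in C1-sgKMT2D and 11301572 in hashtag 2.

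UMIs were summed per group and divided by all gene UMIs. Log2 ratios carry a pseudocount of 1 CPM, and printed folds none. Intervals were exact: Poisson for levels, conditional binomial for ratios and Clopper-Pearson for shares. On simulated counts they held the true ratio for 95.3% to 96.0% of genes. Exact intervals do so by construction where UMIs are drawn independently, and the COL1A1 UMIs of C1-sgEED were concentrated in few cells. All collagens of at least 5 CPM are named. Of the lists of genes that act on collagens, genes of at least 10 CPM with the 3 highest or 3 lowest log2 ratios of a comparison could be named; those of the fibril-associated list were added to this rule after their values were seen. The members and lists were chosen with earlier results of these data known. Promoter windows came from RefSeq (GRCh38.p14, 32 of 44 symbols matched) and gene positions from GENCODE (GRCh38). Alternatives changed the barcode filter, hashtag purity, high-UMI cells, normalisation, pseudocount, minimum CPM, V share bound, score genes and thinning. Leaving out the cell of the most COL1A1 UMIs was added after seeing the data. Tools were Python 3.11.15 with numpy 2.4.6, scipy 1.17.1, pandas 2.3.3, scikit-learn 1.9.0 and matplotlib 3.10.9.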

Additional observations from a re-analysis of the deposited data

Results flagged for a closer look

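For 3 collagens the knockouts stood on opposite sides of C1-sgControl, each with a counting interval apart from 1. Both ratios use the same control cells, each line was 1 sample, and the difference between the ratios was not tested. COL1A1 had a log2 ratio to C1-sgControl of 1.39 in C1-sgEED and -0.36 in C1-sgKMT2D. COL18A1, the multiplexin of basement membranes, had 0.80 in C1-sgEED and -0.40 in C1-sgKMT2D. Among KRT17-rich cells, COL4A1 had 0.43 in C1-sgEED and -0.60 in C1-sgKMT2D. Of these 6 ratios, those of COL1A1 and COL18A1 in C1-sgEED and of COL4A1 in C1-sgKMT2D passed 1.5-fold.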

How the results depend on the processing

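No paired analysis was possible because each line was 1 sample, so no replicate could be left out either. Of 1142 recomputed log2 ratios of the 107 called values, 1089 moved by less than their counting interval, 52 by more with the same direction, and 1 reversed: COL17A1 in VIM-rich C1-sgKMT2D over C1-sgEED went from 0.64 to -1.42 when other epithelial and mesenchymal genes set the ranges (the M share). That score put 613 hashtag 2 cells in the VIM-rich range in place of 1339. Ratios fell under 1.5-fold 16 times, 7 of them for COL6A1 in KRT17-rich C1-sgEED over C1-sgControl (log2 0.48 to 0.58). Of 198 recounts of called collagens, 172 stayed within 1.5 times; the cause of the other 26 was not tested beyond the setting's own construction. With a minimum of 20 CPM, which tests fewer genes, C1-sgKMT2D over C1-sgEED had 3 lower in place of 7. That minimum also gave 2 lower within C1-sgEED, 7 higher within C1-sgKMT2D, 5 higher and 1 lower within hashtag 2, and among KRT17-rich cells 2 higher in C1-sgEED and 0 in C1-sgKMT2D over C1-sgControl. With a minimum of 1 CPM the counts were 12 lower for C1-sgKMT2D over C1-sgEED, 3 lower within C1-sgKMT2D, and 7 and 2 higher among KRT17-rich C1-sgEED and C1-sgKMT2D cells over C1-sgControl. Without mitochondrial and ribosomal protein genes, C1-sgKMT2D had 1 higher over C1-sgEED, 2 lower between its ranges and 2 higher in KRT17-rich cells over C1-sgControl. As a mean over cells, C1-sgKMT2D had 1 higher over C1-sgEED, and KRT17-rich C1-sgEED had 2 higher over C1-sgControl, as it did without the top 5% of cells by UMIs and with the M share (2 each). With V shares under 0.2 and over 0.8, hashtag 2 had 6 lower, KRT17-rich C1-sgKMT2D over C1-sgControl 0 higher, and VIM-rich C1-sgKMT2D over C1-sgEED 5 higher. With the bound at the 99th percentile of C1-sgControl (0.643), the counts were 2 lower within C1-sgKMT2D, 4 lower in hashtag 2, 2 higher in KRT17-rich C1-sgKMT2D over C1-sgControl and 5 higher in VIM-rich C1-sgKMT2D over C1-sgEED. The M share gave 5 lower in hashtag 2. Members under 5 CPM are limited by depth.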

Other observations

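Chains that assemble together were also compared within cells, after thinning to 2000 UMIs. Among VIM-rich C1-sgKMT2D cells, COL6A2 was found in 49.5% of those with a COL6A1 UMI and 24.5% of those without, and in VIM-rich C1-sgEED cells in 28.3% and 20.1%. VIM-rich hashtag 2 cells gave 31.3% and 12.3%. Among KRT17-rich cells the shares were 5.33% and 1.42% in C1-sgControl, 6.45% and 2.31% in C1-sgKMT2D, and 4.35% and 4.45% in C1-sgEED. In KRT17-rich hashtag 2 cells they were 0% and 2.17%. At most 4 cells of a KRT17-rich group held both chains. COL4A2 was found in 30.4% of VIM-rich C1-sgEED cells with a COL4A1 UMI and 20.9% of those without, and in 25.2% and 11.5% in C1-sgKMT2D. Among KRT17-rich cells the shares were 15.3% and 9.13% in C1-sgControl and 12.2% and 7.73% in C1-sgKMT2D. They were 8.24% and 10.7% in KRT17-rich C1-sgEED, and 3.85% and 6.60% in KRT17-rich hashtag 2 cells. No VIM-rich cell of either knockout held UMIs of both COL4A5 and COL4A6. Each was found in at most 28 of 1110 cells of a line there, too few to tell whether they occur together. UMIs of COL3A1 and COL17A1 were found together in 1 of 261 VIM-rich C1-sgEED cells with COL3A1 (0.383%, against 3.18% of those without) and 1 of 227 VIM-rich C1-sgKMT2D cells (0.441%, against 3.17%). In VIM-rich hashtag 2 cells it was 3 of 37 (8.11%, against 6.77%), and in KRT17-rich C1-sgEED cells 2 of 9 (22.2%, against 17.0%). Cells of a line are 1 sample, and these shares are a description with no test.

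Collagen UMIs of any kind were missing from 32.8% of thinned KRT17-rich C1-sgControl cells. The share was 42.2% in KRT17-rich and 23.3% in VIM-rich C1-sgEED cells, and 53.6% and 29.5% in C1-sgKMT2D.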
